A study of Mus musculus with 6 samples.

Results

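The genes described here carry symbols of subunits of the 5 complexes of oxidative phosphorylation, from the nuclear and from the mitochondrial genome, in mouse liver. Protein-coding genes were taken by symbol (Nduf genes of the a, b, c, s and v series without the Ndufaf assembly factors, Sdha to Sdhd, the Uqcr and Atp5 genes, and the Cox genes from Cox5a to Cox8c whose number is followed by a, b or c), and the 13 protein-coding genes of the mitochondrial genome were added. This gave 95 genes out of 37991 gene IDs in the count table, 82 nuclear and 13 mitochondrial. Of these, 91 passed the filter on low counts, 78 nuclear and all 13 mitochondrial. The complex of a gene follows its symbol alone. Ndufa4 and Ndufa4l2 thus count under complex I and Atp5s, also named Dmac2l, under complex V. Livers came from 3 males of the strain B6.Zpbp2-/-, which lack Zpbp2 (Zpbp2 KO), and from 3 C57BL/6J males (WT), all 12 weeks old. Zpbp2 encodes a zona pellucida binding protein of sperm. Poly(A)-selected RNA of each liver was sequenced as 1 library, and the labels name no treatment and do not say how the deletion was made. Per its title, the study dealt with lipid metabolism in this knockout.

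In the inner mitochondrial membrane, complexes I to IV pass electrons from NADH and succinate to oxygen and, complex II aside, pump protons. Complex V, the ATP synthase, lets the protons back and makes ATP. Complexes I, III, IV and V hold subunits from both genomes, while complex II is wholly nuclear. Hepatocytes are rich in mitochondria and use the chain to pay for gluconeogenesis and urea synthesis.

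Zpbp2 itself had 0 counts in each of the 3 Zpbp2 KO libraries and 4, 13 and 7 counts in WT replicates 1, 2 and 3, so it is close to the detection limit in this tissue. Total counts ran from 37904891 to 52955687 per library. All 12 hepatocyte markers were counted in every library, at a summed 120701 to 125107 CPM (counts relative to the scaled library size) in Zpbp2 KO and 110728 to 117942 CPM in WT livers. WT replicate 1 stood apart through 9 of 11 striated muscle markers, which were highest there. Their sum over the list was 0.402 to 1.38 CPM in Zpbp2 KO libraries, 140 CPM in WT replicate 1, and 0.766 and 0.812 CPM in WT replicates 2 and 3. Myh6 was at 0 counts in every library. In bulk liver, fewer cells of a type and less RNA per cell cannot be told apart.

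No oxidative phosphorylation gene passed the test between Zpbp2 KO and WT livers (edgeR quasi-likelihood F-test, Benjamini-Hochberg adjusted p below 0.05 over 14686 genes). The smallest adjusted p was 0.739, for Uqcr11. Over all tested genes the call was also rare, at 2 genes (0.0136%). DESeq2 called 0 members as well, against 0.517% of all tested genes, and limma-voom 0, against 0.0136%. At an unadjusted p below 0.05, 7 members were higher in Zpbp2 KO livers and 0 were lower. Over all tested genes 2.86% were higher at that level and 2.93% lower. The fitted differences leaned one way nonetheless. Of the 78 tested nuclear members, 72 lay above 0, with a median log2 fold change of 0.22, where 52.9% of all tested genes lay above 0 and their median was 0.01. Of the 13 mitochondrial members 12 lay above 0, with a median of 0.14. The sections that follow give these values gene by gene, with the libraries and the transcript lengths that go with them.

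Per kilobase of transcript, the 74 nuclear members with a mean of at least 10 CPM spanned 19.95 to 671 CPM per kb, with a median of 149.8. The highest was Atp5b (671), the catalytic beta subunit of the ATP synthase. Behind it came Uqcrq (589), a small subunit of complex III, Atp5g3 (583), which encodes the membrane c ring of the ATP synthase, and Ndufa4 (550), first assigned to complex I and since found in complex IV. Complex medians were 91.9 for complex I, 159 for complex II, 217 for complex III, 242 for complex IV and 233 CPM per kb for complex V, over 36, 4, 8, 10 and 16 genes. The ranges overlapped. Complex I, with Ndufa4 counted there by its symbol, ran from 19.95 to 550 CPM per kb, and its next highest gene was Ndufb9 (260). The 82 nuclear members took 1.25 ± 0.0657% of all counts in Zpbp2 KO and 1.16 ± 0.0364% in WT livers, and the 13 mitochondrial members 4.84 ± 0.516% in Zpbp2 KO and 4.61 ± 0.104% in WT livers (SD, n = 3 each). As a summed level, the mitochondrial members reached 3.45, 4.31 and 3.90 times the nuclear ones in Zpbp2 KO replicates 1, 2 and 3, and 3.86, 4.08 and 4.02 times in WT replicates 1, 2 and 3. The mitochondrial share and this ratio rest almost wholly on 7 of the 13 genes. The other 6, mt-Co2 to mt-Nd4l, summed to a mean of 39.5 of 49090 CPM in Zpbp2 KO livers. In WT livers they summed to 35.2 of 45632 CPM. The counted levels of these 6 genes are uncertain, and so are the share and the ratio as totals for all 13.

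The mitochondrial genome is read as long transcripts from both strands that are cut at the transfer RNAs between the genes. The counted levels of its 13 protein genes split into separate ranges by position. The 6 neighbours from mt-Co2 to mt-Nd4l (mt-Co2 and mt-Co3 for core subunits of complex IV, mt-Atp8 and mt-Atp6 for the ATP synthase, mt-Nd3 and mt-Nd4l for complex I) had 3.54 to 17.4 CPM per kb. The 7 genes on either side of them had 71.6 to 11956 CPM per kb. mt-Co1, the catalytic core of complex IV, averaged 19159 ± 1404 CPM in Zpbp2 KO and 17784 ± 622 CPM in WT livers, while its neighbour mt-Co2 averaged 12.7 ± 1.45 and 11.1 ± 2.21 CPM in the same groups. mt-Co1 was therefore counted 1278 to 2075 times as often as mt-Co2 in each of the 6 libraries, although both genes lie on the same strand and their products enter the same complex 1 to 1. mt-Nd6, the lone protein gene transcribed from the other strand, was the lowest gene outside the block, at 83.8 CPM per kb in Zpbp2 KO and 59.3 in WT livers. The part of the poly(A) selection and of the unstated strand setting in this count was not tested.

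**Figure D1:**
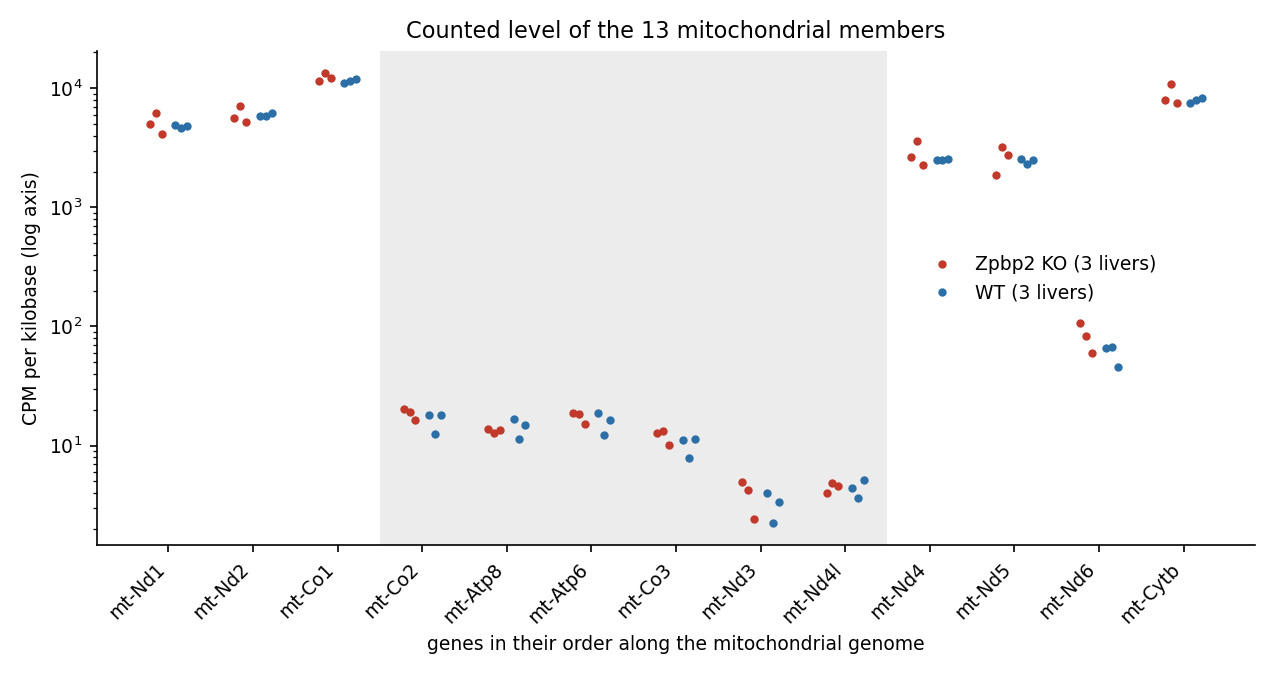
Level of each mitochondrial member in CPM per kilobase (log axis), in the order of the genes along the mitochondrial genome, with 1 point per liver (Zpbp2 KO left, WT right). The shaded block from mt-Co2 to mt-Nd4l lies at 3.54 to 17.4 CPM per kb as a mean over the livers, and every other gene at 71.6 or more.

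The block is also where annotated nuclear copies of mitochondrial DNA are near identical to the source. In GENCODE M21 transcripts (GRCm38), a copy on chromosome 1 matched mt-Co2 (Gm28661), mt-Atp6 (Gm10925), mt-Co3 (Gm28437) and mt-Nd4l (Gm10222) at 100% identity over 99.6%, 99.6%, 99.9% and 98.99% of the gene. Gm28438 matched mt-Nd3 at 99.7% over 99.1%, with 1 mismatch in 345 bases. Among these annotated copies mt-Atp8 is the exception in the block, because its identical stretch in Gm10925 covers 43 bases, 21.1% of the gene. Copies without an annotation could not be found by this search. mt-Nd4, next to the block on one side, was matched over 63.6% at 100% (Gm28439), and mt-Co1, on the other side, over 31.3% at 99.8% (Gm29216). For mt-Nd1, mt-Nd2, mt-Nd5, mt-Nd6 and mt-Cytb no annotated copy on chromosome 1 reached 99%. The annotated copy elsewhere with the most identical bases lay at 77.2% to 96.7%. It covered from 49.1% (mt-Nd2) to 100% (mt-Nd6) of the gene. Only alignments on the same strand were kept. The first 100 bases of mt-Co2 and mt-Nd3 and the 100 bases of mt-Cytb after its first 100 are shown beside their copies, since they are what a read would have to be told apart by. Capitals mark the bases that differ between a pair.
mt-Co2, and without a difference Gm28661: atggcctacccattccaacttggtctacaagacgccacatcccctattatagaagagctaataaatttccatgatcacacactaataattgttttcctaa
mt-Nd3: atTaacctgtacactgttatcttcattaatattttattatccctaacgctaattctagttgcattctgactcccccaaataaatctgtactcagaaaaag
Gm28438: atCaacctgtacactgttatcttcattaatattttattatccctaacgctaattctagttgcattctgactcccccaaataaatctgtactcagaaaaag
mt-Cytb: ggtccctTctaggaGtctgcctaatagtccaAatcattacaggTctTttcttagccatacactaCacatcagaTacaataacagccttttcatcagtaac
Gm11410 on chromosome 4: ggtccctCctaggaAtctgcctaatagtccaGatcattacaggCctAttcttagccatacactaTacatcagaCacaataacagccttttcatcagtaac
The mt-Co2 window holds 0 differences from its copy, the mt-Nd3 window 1 and the mt-Cytb window 7. Of the 7 copies on chromosome 1, Gm10222 was the one with a row in the count table, with 128, 151 and 153 counts in Zpbp2 KO and 184, 156 and 129 counts in WT replicates 1 to 3. How the counting treated reads with more than one best place is not stated in the labels, and the part of the copies in the low counts was not tested. Levels of the block are thus uncertain, and the medians of the mitochondrial members are given for the block and outside it.

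Between genotypes the mitochondrial members did not separate. The median log2 fold change was 0.11 for those outside the block (7 of 7 above 0) and 0.17 for the block (5 of 6). mt-Cytb, the core of complex III, had 9153, 12318 and 8549 CPM in Zpbp2 KO replicates 1 to 3, against 8660, 9079 and 9392 CPM in WT replicates 1 to 3. Zpbp2 KO replicate 2 was above the WT livers, replicate 3 just below and replicate 1 among them. The 7 genes outside the block summed to 57224 CPM in Zpbp2 KO replicate 2 and to 44773 to 47001 CPM in the other 5 livers. The log2 fold change of mt-Cytb was 0.15 ± 0.152 (adjusted p = 0.851). mt-Nd5, a proton-pumping subunit of complex I, had 3444, 5839 and 5027 CPM in Zpbp2 KO and 4678, 4224 and 4594 CPM in WT replicates 1 to 3, so Zpbp2 KO held both the lowest and the highest value. mt-Nd6 had 56.0, 43.6 and 30.9 CPM in Zpbp2 KO and 34.2, 34.7 and 23.5 CPM in WT replicates 1 to 3. Its groups overlapped, and its log2 fold change of 0.50 ± 0.228 (adjusted p = 0.798) was the highest of any member. mt-Nd2 lay at 0.01 ± 0.136, and its sign turned with DESeq2's size factors and with library totals. Leaving out Zpbp2 KO replicate 2 lowered the median of the 13 members most, to -0.02, with 6 of 13 above 0. Without WT replicate 2 it was 0.05, with 9 of 13 above 0. In the block, the median deviation from the WT mean was 0.30, 0.25 and -0.02 in Zpbp2 KO replicates 1, 2 and 3, and 0.20, -0.33 and 0.14 in WT replicates 1, 2 and 3.

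Complex IV has subunits with paired isoforms, one found in most tissues and the liver and the other in heart and skeletal muscle. Cox6a1 and Cox8a, the general forms, had 198 to 285 and 154 to 199 CPM in Zpbp2 KO livers, and 199.6 to 225 and 145 to 164 CPM in WT livers. Cox7a2 had 110.1 to 136 CPM in Zpbp2 KO and 98.9 to 121 CPM in WT livers. The muscle form Cox6a2 had 2, 3 and 1 counts in Zpbp2 KO and 77, 1 and 3 counts in WT replicates 1 to 3, and Cox8b had 3, 1 and 0 in Zpbp2 KO and 59, 0 and 1 in WT. Both failed the filter. Cox7a1, the muscle form of Cox7a2, had 61, 55 and 55 counts in Zpbp2 KO and 129, 53 and 49 in WT. All 3 muscle forms were thus high in WT replicate 1 alone, the library with 2069 counts of the muscle actin Acta1, 1043 of creatine kinase Ckm and 783 of myoglobin Mb. These 3 markers had 0 to 3 counts in each of the other 5 libraries. Cox7a1 had a log2 fold change of -0.43 ± 0.348 (adjusted p = 0.826), and of 0.06 without WT replicate 1. The median of the nuclear members was 0.22 without that library as well. The testis forms Cox7b2 and Cox8c had 0 counts in every library, which allows 0.0560 to 0.0786 CPM (3 counts, counting error only), and Cox6b2, also known from testis, had 8 to 14 counts in Zpbp2 KO and 9 to 16 in WT libraries.

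**Figure D2:**
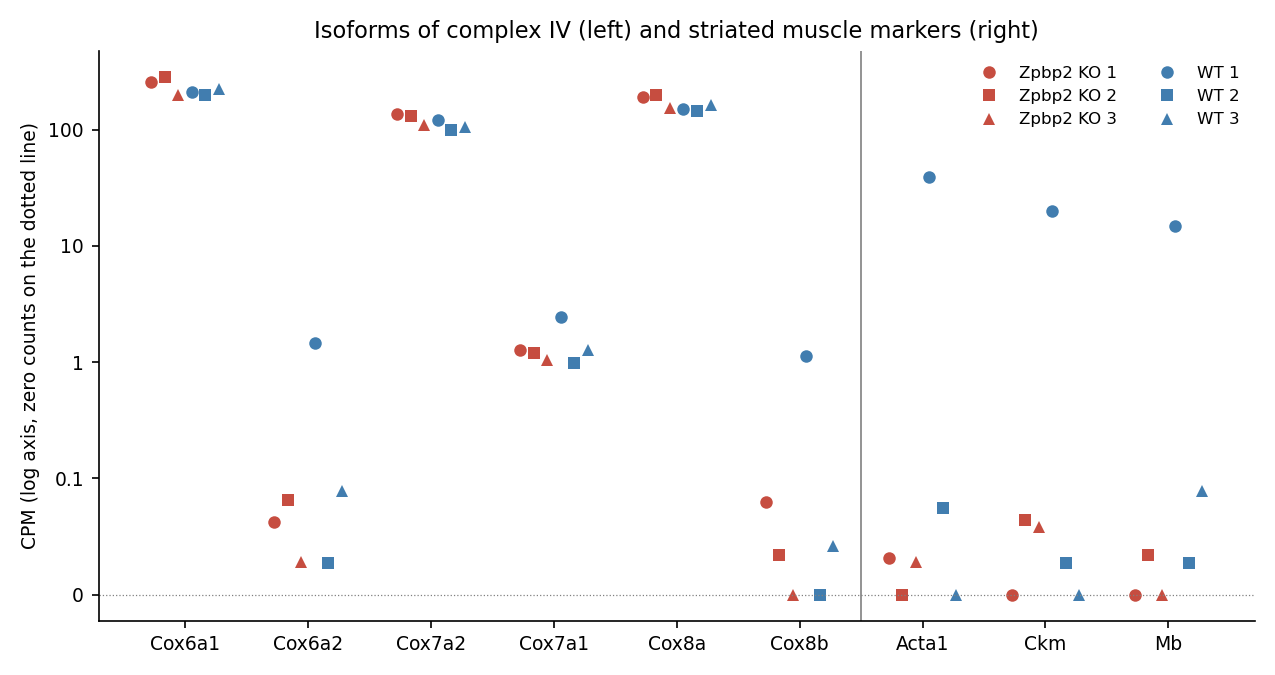
Level in CPM (log axis, zero counts drawn on the dotted line) of paired isoforms of complex IV and of 3 striated muscle markers, 1 symbol per liver. The muscle forms Cox6a2, Cox7a1 and Cox8b and the markers Acta1, Ckm and Mb are highest in WT replicate 1, while Cox6a1, Cox7a2 and Cox8a are not.

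The c ring of the ATP synthase is built from identical copies of 1 mature protein that 3 genes encode. Atp5g3 was the main source, at 444 ± 50.7 CPM in Zpbp2 KO and 389 ± 19.998 CPM in WT livers. Atp5g1 came next, at 166 ± 18.7 in Zpbp2 KO and 134 ± 8.09 CPM in WT livers, and Atp5g2 had 48.1 ± 5.31 in Zpbp2 KO and 42.9 ± 2.81 CPM in WT livers (SD, n = 3 each). The ratio of Atp5g3 to Atp5g1 was 2.69, 2.68 and 2.67 in Zpbp2 KO replicates 1 to 3 and 2.97, 2.87 and 2.84 in WT replicates 1 to 3. It did not overlap between the groups, but it was picked out after its values were seen and is given with no test. Atp5g1 had a log2 fold change of 0.30 ± 0.110 (unadjusted p = 0.0248, adjusted p = 0.798).

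Complex I is the largest complex and has the most members, 37 tested, of which 35 lay above 0 (median 0.22). The accessory subunit Ndufa2 had 77.0, 79.2 and 56.7 CPM in Zpbp2 KO and 56.0, 50.6 and 56.0 CPM in WT replicates 1 to 3. The groups just missed overlap, with Zpbp2 KO replicate 3 next to the highest WT liver and the other two well above. Its log2 fold change was 0.39 ± 0.138 (adjusted p = 0.798). Ndufa7, another accessory subunit, had 95.8, 87.7 and 63.9 CPM in Zpbp2 KO and 63.4, 57.6 and 68.7 CPM in WT replicates 1 to 3, with Zpbp2 KO replicate 3 inside the WT range, and Ndufa13 had a log2 fold change of 0.28 ± 0.125. The 2 tested members of complex I below 0 were Ndufv1 and Ndufs1. Ndufv1, which binds NADH and the flavin, had 175, 179 and 178 CPM in Zpbp2 KO and 177, 177 and 182 CPM in WT replicates 1 to 3, a log2 fold change of -0.01 ± 0.0819. Ndufs1, the largest iron-sulfur subunit, had 117, 121 and 141 CPM in Zpbp2 KO and 136, 138 and 126 CPM in WT replicates 1 to 3. Here the Zpbp2 KO livers held the extremes on both sides, at -0.08 ± 0.104.

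Complex II oxidises succinate in the tricarboxylic acid cycle. Its iron-sulfur subunit Sdhb had 207, 210.1 and 189 CPM in Zpbp2 KO livers, all above the 169.6, 168 and 175 CPM of WT replicates 1 to 3, with a log2 fold change of 0.24 ± 0.0885 (unadjusted p = 0.0252, adjusted p = 0.798). Sdha, the flavoprotein that binds succinate, had 563, 521 and 619 CPM in Zpbp2 KO and 556, 602 and 576 CPM in WT replicates 1 to 3, and its groups overlapped at -0.03 ± 0.0996. The membrane anchor Sdhc lay at 0.12 ± 0.0952, with Zpbp2 KO livers at 179 to 205 CPM and WT livers at 169 to 186 CPM.

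In complex III, which passes electrons from ubiquinol to cytochrome c, all 8 nuclear members lay above 0 (median 0.23). Uqcr11, its smallest subunit, had 145, 155 and 114 CPM in Zpbp2 KO livers, above the 99.01, 100.2 and 112 CPM of WT replicates 1 to 3. It had the smallest p of any member (unadjusted p = 0.0124) and a log2 fold change of 0.41 ± 0.129, equal to 1.33-fold. Uqcrq, next to it in size of difference at 0.41 ± 0.165, had 305, 310 and 202 CPM in Zpbp2 KO and 210.4, 189 and 217 CPM in WT replicates 1 to 3. Its Zpbp2 KO replicate 3 lay inside the WT range. Uqcr10 had 127, 118 and 86.8 CPM in Zpbp2 KO and 93.2, 84.5 and 89.8 CPM in WT replicates 1 to 3, again with the third Zpbp2 KO liver inside. The large core proteins differed far less. Uqcrc1 had 306, 308 and 291 CPM in Zpbp2 KO and 282, 285 and 286 CPM in WT replicates 1 to 3, without overlap, yet with a log2 fold change of 0.09 ± 0.0840.

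In complex IV, 10 of 12 tested nuclear members lay above 0 (median 0.21), the exceptions being the scarce Cox7a1 and Cox6b2. Cox7b had 161, 175 and 133 CPM in Zpbp2 KO and 138, 113 and 127 CPM in WT replicates 1 to 3, overlapping, with a log2 fold change of 0.31 ± 0.128 (unadjusted p = 0.0391). Cox5b and Cox6b1 lay at 0.30 ± 0.136 and 0.27 ± 0.123. In complex V, 16 of 17 lay above 0 (median 0.20). The d and f subunits of its stalk and membrane part, Atp5h and Atp5j2, lay at 0.27 ± 0.117 and 0.26 ± 0.122. The abundant catalytic subunit Atp5b had 1341, 1152 and 1311 CPM in Zpbp2 KO and 1314, 1309 and 1283 CPM in WT replicates 1 to 3, so that one Zpbp2 KO liver was below every WT liver and one above, at -0.04 ± 0.0983. Its partner Atp5a1 lay at 0.01 ± 0.0894.

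Over all nuclear members, 10 of 78 (12.8%) had all 3 Zpbp2 KO livers above all 3 WT livers and 0 had the reverse. The background shares were 5.56% and 6.01% of all tested genes. Besides the genes given above, these were Ndufa5, Ndufc2, Uqcrc2, Atp5d and Atp5s. Zpbp2 KO replicate 3 set the limit. Among the 74 members of at least 10 CPM, Zpbp2 KO replicates 1 and 2 each lay above every WT liver for 67. Zpbp2 KO replicate 3 did so for 12, lay inside the WT range for 55 and below it for 7. As a median deviation from the WT mean on the log2 scale, the nuclear members stood at 0.26, 0.35 and 0.00 in Zpbp2 KO replicates 1, 2 and 3, and at 0.02, -0.08 and 0.05 in WT replicates 1, 2 and 3. Between livers of a group, the coefficient of variation had a median of 13.7% in Zpbp2 KO and 6.00% in WT over these 74 genes. Its ends in Zpbp2 KO were Ndufv1 (1.17%) and Uqcrq (22.3%).

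**Figure D3:**
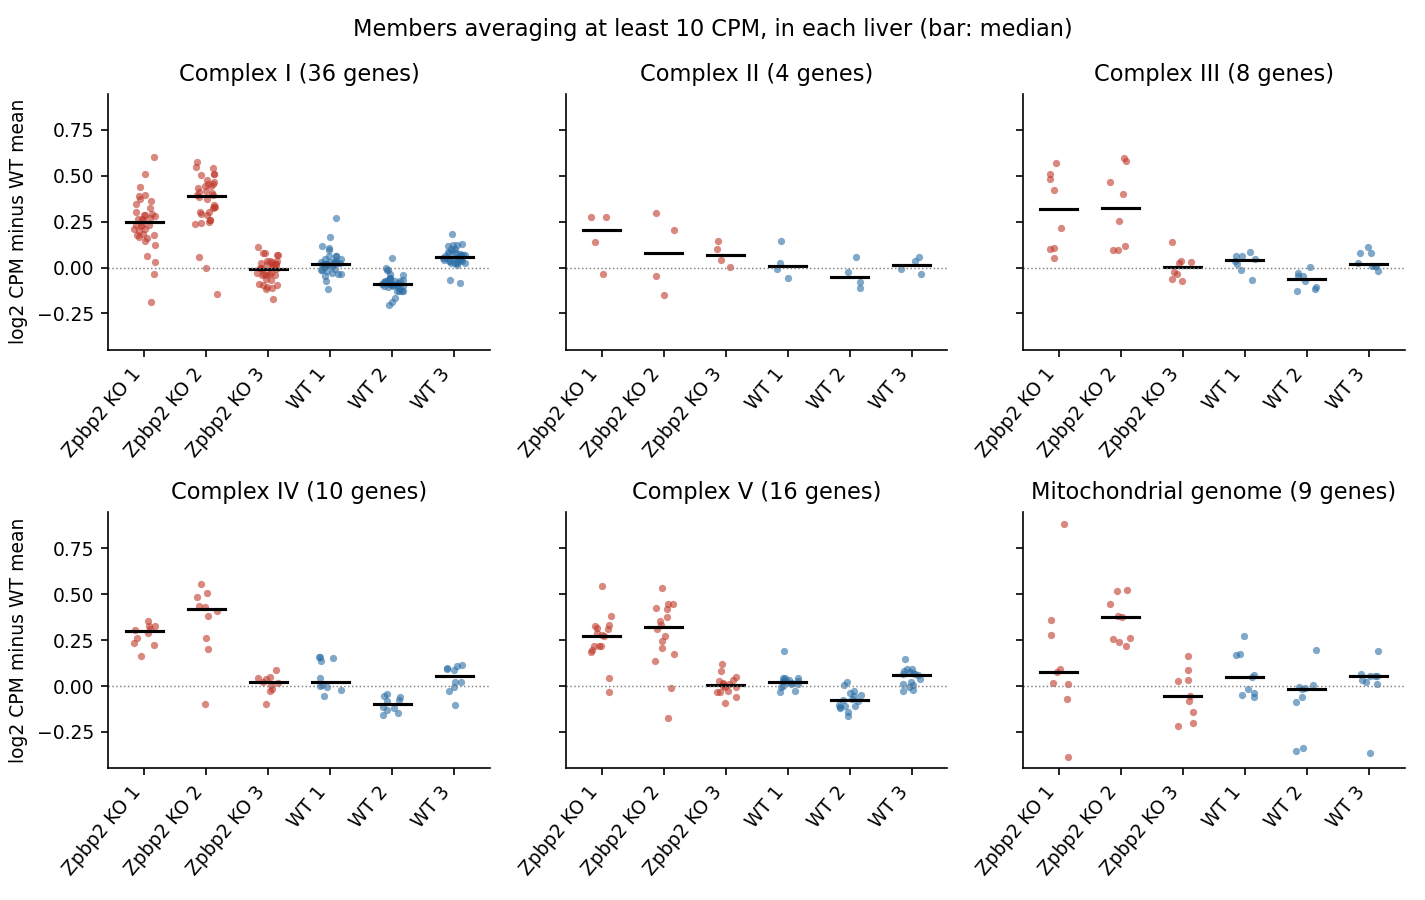
Deviation of each member with a mean of at least 10 CPM from its WT mean, on the log2 CPM scale, by complex and for the mitochondrial genome, in each liver (1 point per gene, bar at the median). Zpbp2 KO replicates 1 and 2 sit above the WT livers in most nuclear panels, and Zpbp2 KO replicate 3 sits among them.

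Without Zpbp2 KO replicate 3 the nuclear median was 0.31, and 52 of 78 nuclear members had an unadjusted p below 0.05 on the higher side, where 7.0% of all tested genes did. So did 65 of 76 genes of cytosolic ribosomal proteins and 31 of 77 of mitochondrial ribosomal proteins. Of 1118 tested genes under 800 bases, 298 did, a smaller share than the 66.7% of the nuclear members. The rise was not particular to the members, since the cytosolic ribosomal list had a larger share than they did. Still 0 members passed the adjusted test, the smallest adjusted p being 0.278. Of all 91 tested members, nuclear and mitochondrial, 53 had an unadjusted edgeR p below 0.05 on the higher side in this fit. With all libraries that count was 7. It was 1 and 1 without Zpbp2 KO replicates 1 and 2, and 3, 1 and 4 without WT replicates 1 to 3. Zpbp2 KO replicate 3 was singled out after its values were seen. Marker lists of other cells differed between these libraries too. The erythroid marker list, 8 genes in the table, summed to 308, 360 and 170 CPM in Zpbp2 KO replicates 1, 2 and 3 and to 154, 228 and 227 CPM in WT replicates 1, 2 and 3. The Kupffer cell list, 10 genes, summed to 493, 167 and 535 CPM in Zpbp2 KO and 424, 339 and 296 CPM in WT replicates 1 to 3, and the endothelial list, 9 genes, to 385, 165 and 292 in Zpbp2 KO and 354, 249 and 258 CPM in WT replicates 1 to 3, so both were lowest in Zpbp2 KO replicate 2 and neither was low in replicate 1. Every gene of both lists was counted in every library. Their part in the levels of the respiratory genes was not tested.

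Differences between the genotypes followed transcript length among the members. The shortest principal transcript of each gene was used as its length. All 49 nuclear members of at least 10 CPM and under 1000 bases lay above 0, with a median of 0.23 and a range of 0.13 to 0.41. Of the 25 members of 1000 bases or more, 21 did, with a median of 0.12 and a range of -0.08 to 0.31. The log2 fold change and the log2 length had a Pearson correlation of -0.676 and a Spearman correlation of -0.556 across the 74 members, which share their libraries and are not independent. The slope was also present over the whole table. Across 14244 tested genes with a length the Pearson correlation was -0.250. The median was 0.21 for tested genes under 800 bases, with 76.6% above 0, those of 800 to below 1600 bases 0.12, those of 1600 to below 3200 bases 0.02, and those of 3200 bases or more -0.07. The same 1118 short genes reached an unadjusted p below 0.05 on the higher side in 7.25% and lacked overlap on the higher side in 9.66%, beside 8.97% and 12.8% of the tested nuclear members. By library, the correlation with length over the 74 members was -0.670, -0.628 and 0.256 for the deviations of Zpbp2 KO replicates 1, 2 and 3, and -0.0883, 0.569 and -0.440 for those of WT replicates 1, 2 and 3.

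**Figure D4:**
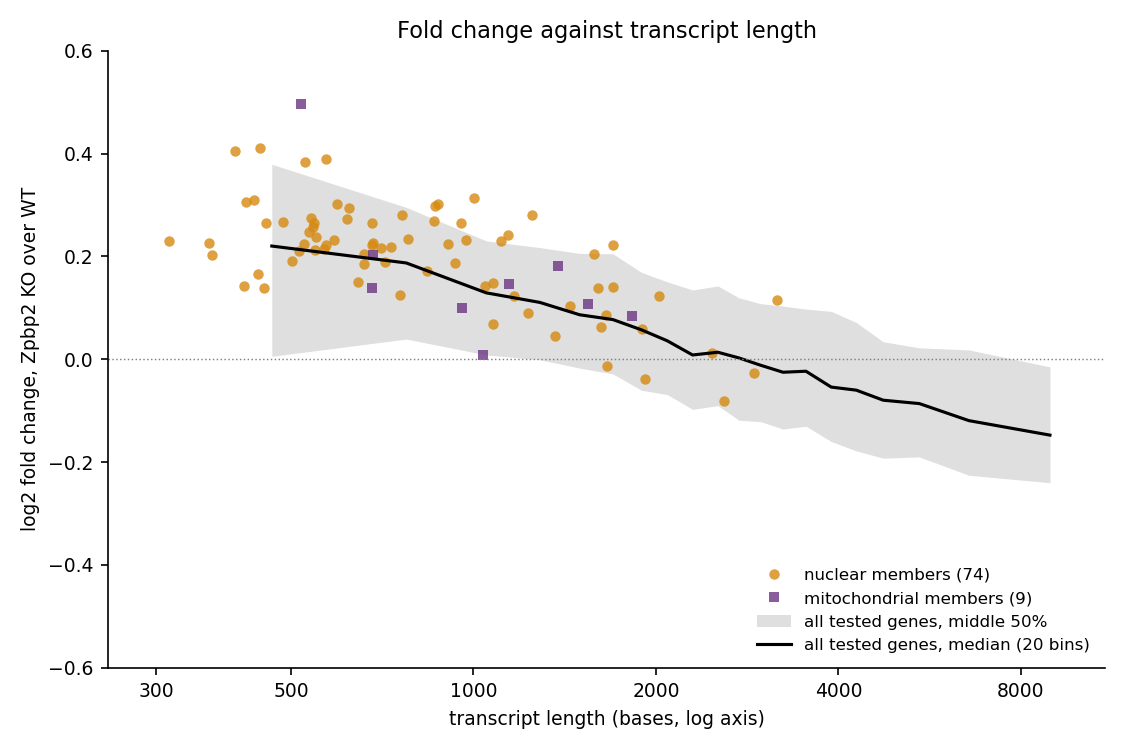
Log2 fold change (Zpbp2 KO over WT) against transcript length in bases (log axis) for nuclear and mitochondrial members of at least 10 CPM, with the median and the quartiles of all tested genes in 20 bins of length. The median of all genes is lower for longer genes, and the values of the members are too.

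With each library's trend in length and GC content taken out as an offset, the nuclear median was 0.06, with 63 of 78 above 0, where all tested genes had a median of 0.00 and 51.2% above 0. Complex medians then stood at 0.07, 0.05, 0.07, 0.04 and 0.07 for complexes I to V, and the mitochondrial members at 0.05, with 9 of 13 above 0 (0.05 and 5 of 7 outside the block). Members with an unadjusted p below 0.05 were then Ndufa2 (0.22) and Uqcr11 (0.22), beside 2.21% of all tested genes on that side. Members that turned from above to below 0 included Ndufa4 and Atp5g2 (-0.02 each), Uqcrc1 (-0.0032), mt-Nd1 (-0.02), mt-Nd2 (-0.10) and mt-Nd4l (-0.11). What gave these libraries their trend with length was not tested.

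Genes that work with the complexes were described in the same fit, and 0 of them were called. Of 46 tested assembly factors, which build the complexes without being part of them, 38 lay above 0 (median 0.12, and 0.07 with the offsets). Foxred1, needed to assemble complex I, had 40.4, 48.4 and 44.9 CPM in Zpbp2 KO livers, all above the 34.0, 37.4 and 38.5 CPM of WT replicates 1 to 3. Its log2 fold change was 0.28 ± 0.106 (adjusted p = 0.798), and 0.26 with the offsets. Ndufaf3 lay at 0.33 ± 0.142. The 37 genes of mitochondrial DNA maintenance and transcript expression had a median of 0.05 (25 above 0), with Tefm, a transcription elongation factor, at 0.33 ± 0.148 and Fastk at 0.24 ± 0.108. The 14 tricarboxylic acid cycle genes had a median of 0.01 (8 above 0), with Ogdh at -0.19 ± 0.111 and Idh3g at 0.11 ± 0.0879. The 22 genes of mitochondrial membrane and import had a median of 0.00 (11 above 0), with Phb at 0.19 ± 0.110 and Opa1, which fuses inner membranes, at -0.17 ± 0.0947.

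Among subunits and carriers that the symbols leave out, 8 of 11 tested lay above 0 (median 0.11). Cox4i1, the general form of a complex IV subunit, had 412 ± 54.5 CPM in Zpbp2 KO and 359 ± 17.8 CPM in WT livers (SD, n = 3 each), at 0.20 ± 0.117. Etfdh, which hands electrons from fatty acid oxidation to ubiquinone, went the other way. It had 260, 269 and 253 CPM in Zpbp2 KO livers, all below the 287, 301 and 285 CPM of WT replicates 1 to 3, at -0.16 ± 0.0852 (adjusted p = 0.798) and -0.17 with the offsets. Its partner Etfb lay at 0.26 ± 0.143, overlapping, and at 0.11 with the offsets. Etfa, of the same list, lay at 0.04 ± 0.0968, also overlapping, and at -0.03 with the offsets. Of the genes of cytosolic ribosomal proteins, with a median length of 705 bases beside 723 for the nuclear members, 76 of 76 tested lay above 0 (median 0.23, and 0.08 with the offsets). Of those of mitochondrial ribosomal proteins, with a median length of 1280 bases, 75 of 77 did (median 0.15, and 0.07).

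**Figure D5:**
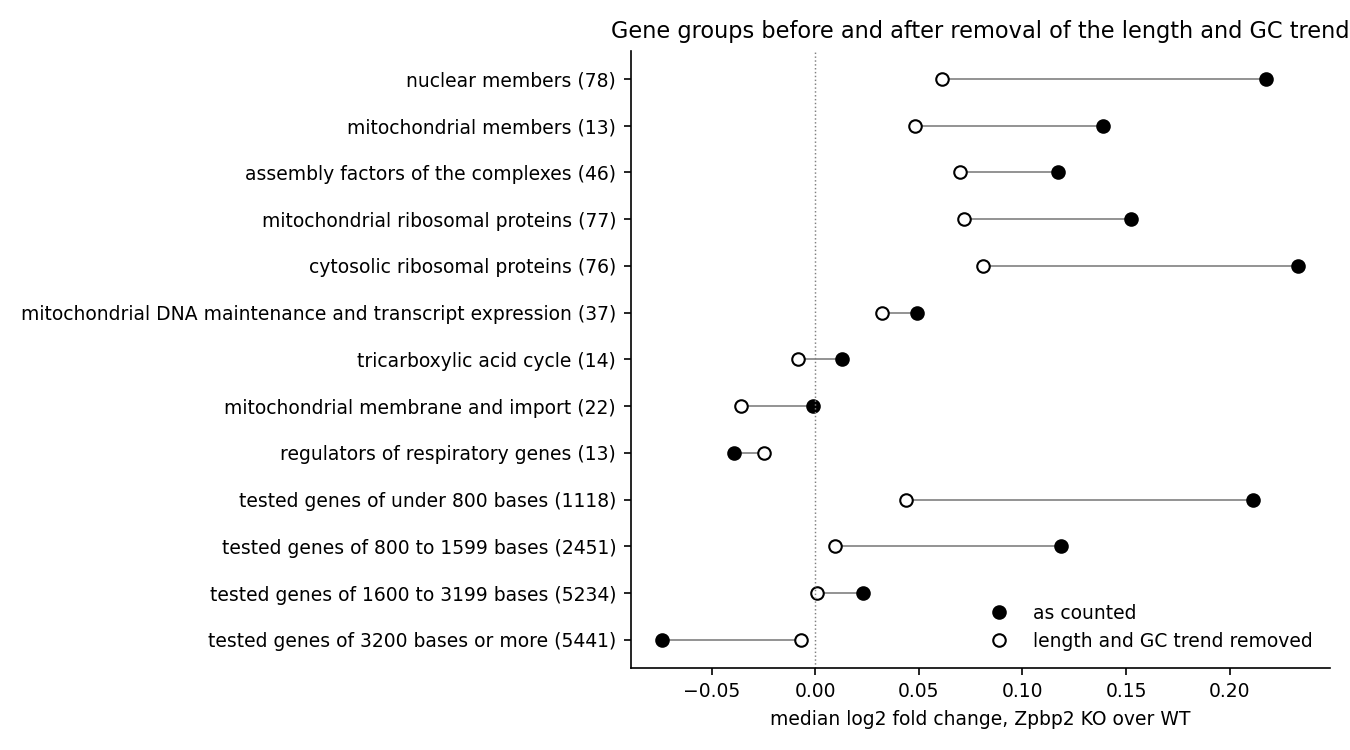
Median log2 fold change (Zpbp2 KO over WT) of gene groups, with the number of tested genes in brackets, as counted (filled) and with the trend of each library with length and GC content removed (open). The nuclear members move from 0.22 to 0.06, the cytosolic ribosomal proteins from 0.23 to 0.08, and tested genes of under 800 bases from 0.21 to 0.04.

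The 13 regulators of respiratory genes had a median of -0.04, with 5 above 0. Gabpa, the DNA-binding part of nuclear respiratory factor 2, had 41.6, 41.5 and 50.2 CPM in Zpbp2 KO and 54.9, 53.3 and 49.3 CPM in WT replicates 1 to 3, at -0.24 ± 0.110. Ppara, the receptor that drives fatty acid oxidation genes in liver, had 65.6, 57.0 and 117 CPM in Zpbp2 KO and 137, 96.4 and 108 CPM in WT replicates 1 to 3, at -0.51 ± 0.262. For both, Zpbp2 KO replicates 1 and 2 lay below every WT liver and replicate 3 inside the WT range, opposite to the members, and neither passed the test (adjusted p = 0.798 for each). Ppargc1a, the coactivator of mitochondrial genes, was highest in Zpbp2 KO replicate 3, at 16.3 CPM, where the other Zpbp2 KO livers had 7.74 and 5.20 and the WT livers 6.59 to 7.31 CPM. It was picked out after its values were seen.

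Nuclear respiratory factor 1 (NRF1) binds a palindromic GC-rich element known from many genes of the respiratory chain. The motif GCGCA, any base and GCGC, searched on both strands from 250 bases before to 50 after the start site in RefSeq promoters of GRCm38.p6, was found for 16 of 68 members with a promoter (23.5%) and in 6.60% of 17492 promoters. The ETS motif CCGGAAG, read by GABPA, was found for 15 members (22.1%) and in 11.9% of all promoters, the YY1 motif AAGATGGCG for 6 (8.82% and 1.94%), and the ERR motif AAGGTCA for 8 (11.8% and 4.08%). In promoters of cytosolic ribosomal proteins, the NRF1, ETS, YY1 and ERR motifs were found for 4, 24, 3 and 4 of 61 genes. In those of mitochondrial ribosomal proteins they were found for 13, 25, 8 and 4 of 69. The ETS motif was thus more frequent in both ribosomal groups than among the members. A stretch could count for more than 1 motif. Of the members with an NRF1 match 16 were tested, with a median log2 fold change of 0.22, the same to 2 decimals as that of the 50 tested members without one. Atp5h, with 1 match and a log2 fold change of 0.27, and Sdha, with 3 matches and -0.03, are shown as one member with a higher value and one near 0 that both carry the motif. The first window is chr11:115419870-115420169 and the second chr13:74350191-74350490, both on the minus strand, and capitals mark the matches.
Atp5h: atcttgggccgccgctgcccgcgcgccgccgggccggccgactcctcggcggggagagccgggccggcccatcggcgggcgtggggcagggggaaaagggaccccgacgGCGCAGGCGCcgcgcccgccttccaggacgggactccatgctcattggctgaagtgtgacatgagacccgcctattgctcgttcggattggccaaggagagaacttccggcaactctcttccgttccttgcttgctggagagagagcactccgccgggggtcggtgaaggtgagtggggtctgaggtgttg
Sdha: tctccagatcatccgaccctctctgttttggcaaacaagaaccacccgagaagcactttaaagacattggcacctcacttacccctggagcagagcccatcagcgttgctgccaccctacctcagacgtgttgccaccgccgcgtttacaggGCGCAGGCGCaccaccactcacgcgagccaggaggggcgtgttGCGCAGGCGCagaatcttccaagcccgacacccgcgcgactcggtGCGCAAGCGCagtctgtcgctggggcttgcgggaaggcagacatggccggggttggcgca
A match describes letters in this window and was not tied to binding in these livers.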

How the data were processed

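RNA-seq of 3 Zpbp2 KO and 3 WT livers was used. The deposited values are raw counts by Ensembl ID, 1 column a liver, made with STAR, Picard and HTSeq on mm9 per the submitters' processing notes. Versions, annotation and strand setting were not stated there, so reads of overlapping genes on opposite strands may not have been told apart. Symbols came from GENCODE M21 (86.6% of IDs matched), and no member coordinates are given on mm9. Genes were filtered with filterByExpr (minimum count 10), scaled by TMM and tested with the two-sided quasi-likelihood F-test of edgeR 4.0.16, with Benjamini-Hochberg adjustment over all tested genes and no covariate. Log2 fold changes (Zpbp2 KO over WT) stand ± the SE implied by the test. CPM use TMM-scaled library sizes. Lengths came from the shortest principal GENCODE transcript, and offsets are splines in length and GC content per library. Nuclear copies were sought with blastn 2.17.0 among annotated transcripts, since no genome sequence was used here. Alternatives were DESeq2 1.42.0, limma-voom 3.58.1, other scalings and filters, the replicate number as a block, and each library left out in turn. The tests were also run on simulated counts drawn without a trend in length, and the offsets on counts with a set trend. Neither run is used as support for the values here. Pairs of livers of a group differed by a chi-square of 18.7 to 94.9 per gene, so none was a copy of another.

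The members and gene lists were chosen with earlier results of these data known. Named genes are all 13 mitochondrial members, the 3 members of each complex with the smallest p (2 in complex II) and the one with the highest level per kilobase, the paired isoforms, and the 2 genes of each other list with the smallest p. Other genes, such as Ndufv1, Ndufs1, Uqcrc1, Atp5a1 and those at the ends of a range, were chosen after their values were seen. Limits from a count of 0 cover counting error only. A p that misses the threshold does not show that the genotypes act alike.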

Additional observations from a re-analysis of the deposited data

How the results depend on the processing

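Under all 16 alternatives set against the analysis as reported, 0 members were called. Genes called over the whole table numbered 2 as reported, 76 with DESeq2, 12 with no filter on low counts, and 2 to 4 with a library left out in turn, the 4 being without Zpbp2 KO replicate 2. The nuclear median of 0.22 became 0.0614 with the length and GC offsets and 0.0613 with the offsets and the replicate block, and ran from 0.13 (without Zpbp2 KO replicate 2) to 0.31 (without Zpbp2 KO replicate 3). The mitochondrial median ran from -0.0199 (without Zpbp2 KO replicate 2) to 0.24 with a library left out. Of 799 values of named genes under alternatives, 769 kept their direction and 30 turned, in 13 of 50 genes, none of them called in any setting.

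Values that turned were those of mt-Nd2 (-0.0028 with DESeq2's size factors and by DESeq2, -0.0302 with library totals, -0.0040 by limma-voom, -0.0042 with the replicate block, -0.0985 with the offsets, -0.1008 with offsets and block), Atp5g2 (-0.0243 with the offsets, -0.0262 with the block too), Ndufa4 (-0.0172 and -0.0132), mt-Nd1 (-0.0153 and -0.0231) and mt-Nd4l (-0.1123 and -0.1121). With a library left out, Atp5b ran from -0.0808 to 0.0257, Cox7a1 from -0.6781 to 0.0569, Sdha from -0.0927 to 0.0315, mt-Atp6 from -0.0133 to 0.2828, mt-Atp8 from -0.2431 to 0.0311, mt-Cytb from -0.0315 to 0.2466, mt-Nd1 from -0.0649 to 0.2369, mt-Nd2 from -0.1359 to 0.1021, mt-Nd4 from -0.0209 to 0.3194, mt-Nd4l from -0.0768 to 0.1477 and mt-Nd5 from -0.0874 to 0.2719. Atp5g2 ran from 0.0771 to 0.2350 and Ndufa4 from 0.0484 to 0.2340. The causes were not tested beyond what each alternative leaves out.

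Same-numbered livers had correlations of 0.14, 0.20 and -0.24 in their deviations from the group means. The labels do not say that the numbers pair animals, and with 3 livers a group these values cannot settle it. With the replicate block 2 genes and 0 members were called, the nuclear median was 0.21 and the mitochondrial median 0.13. With 3 livers a group an exact permutation test cannot go below p = 0.1. Chosen after seeing the data were the nuclear median over members of at least 10 CPM (0.22) and the mitochondrial median outside the mt-Co2 to mt-Nd4l block (0.11).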

Other observations

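The 4 tested members on chromosome 11, which also carries Zpbp2, are Uqcrq, Uqcr10, Atp5g1 and Atp5h. Their log2 fold changes ran from 0.27 to 0.41, with a median of 0.31. All 1227 tested genes of that chromosome had a median of 0.03, and the 131 of them under 800 bases one of 0.22. The grouping was noticed after the values were seen and was given no test.

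The ratio of mt-Nd5 to its neighbour mt-Nd4 was 0.937, 1.18 and 1.61 in Zpbp2 KO replicates 1 to 3 and 1.37, 1.23 and 1.31 in WT replicates 1 to 3. The ratio of mt-Nd6 to mt-Nd5 was highest in Zpbp2 KO replicate 1, at 0.0163, and 0.00512 to 0.00821 in the other 5 livers. Both ratios were picked out after their values were seen.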
